A study of Mus musculus with 32 samples.

Results

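The genes of the mitochondrial ribosome were followed through the ribosome footprints of adult mouse neural stem cells (NSCs) exposed to IFN-β. The family was taken as every protein-coding gene whose symbol starts with Mrpl or Mrps followed by a digit and whose mean over the footprint libraries at 14 h was 20 or more counts in the coding sequence (CDS). The annotation holds 78 such genes, 77 of them are in the footprint tables of 23035 genes, and all 77 passed the minimum. The lowest mean was 133.1 counts, for Mrps36, so the minimum left out no gene with an entry. Mrpl33 was not analysed here.

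The cells were NSCs of the ventricular-subventricular zone of C57BL/6 mice aged 8 to 12 weeks, cultured with growth factors and given either vehicle or IFN-β, for 2 h or for 14 h. Cycloheximide was added before lysis, ribosome-protected fragments (footprints) and total RNA of the same lysates were sequenced, and each of the 4 conditions held 4 cultures. The cultures of the short exposure carry the numbers 2, 3, 5 and 6, and those of the long exposure 1 to 4. The labels name no genetic change in any group, all cultures received cycloheximide, and the comparison at each time is IFN-β against vehicle.

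Mitochondria keep their own ribosome for the few membrane proteins of the respiratory chain that mitochondrial DNA encodes. Its RNAs are made inside the organelle, whereas all its proteins are encoded in the nucleus, made by cytosolic ribosomes and imported. Some of these proteins have a counterpart in bacteria and others are found only in mitochondria. The proteins of the cytosolic ribosome differ in one respect that matters here: their mRNAs start with a terminal oligopyrimidine (TOP) motif, a C followed by a run of pyrimidines, through which mTORC1 controls their translation. Mitochondrial ribosomal protein mRNAs are not counted among the TOP-mRNAs, and the 64 TOP-mRNAs listed by the study therefore served as the contrast.

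The first bases of the transcripts are shown because the TOP motif is a feature of the start. They are 25 bases from the RefSeq start in GRCm38.p6, for some of the called members and for 4 TOP-mRNAs with long pyrimidine runs. Some members with larger changes than those of the members shown are left out. The capitals mark the initial C and the pyrimidines after it in these 4.
Mrpl42, chr10:95501925-95501949, minus strand: cggcgcctttaggacccagattgaa
Mrpl18, chr17:12916067-12916091, minus strand: acagttaacatggctgcgactagtt
Mrps21, chr3:95871490-95871514, minus strand: gggactccgtagcttccgcttccgg
Mrpl34, chr8:71464926-71464950, plus strand: gaaggcattgtcaaggagcccagag
Mrpl30, chr1:37890477-37890501, plus strand: acggtctgtgacggcaacggcgtgg
Mrpl17, chr7:105811063-105811087, minus strand: ctctgagacgtgcctccgcccctct
Mrps6, chr16:92058336-92058360, plus strand: ggagctgaccggccgtgttcctctc
Fau, chr19:6057947-6057971, plus strand: CTTCCTCTTTCTTgactccatcttc
Eif3f, chr7:108934415-108934439, plus strand: CTCTCTTTCTCggcaagatggcttc
Rpl35, chr2:39005107-39005131, minus strand: CTCTTTCTCTCgaaccaggctgctt
Rps10, chr17:27635220-27635244, minus strand: CTTCCTTTCCagcctccgcctcgga

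Of the 68 members with an entry among the RefSeq starts, 0 began with a C followed by 4 or more pyrimidines. Mrpl17 began with a run of 4 letters. Mrpl45, whose start is not shown, began with a T, after which came a C followed by 4 pyrimidines. Of the TOP-mRNAs with an entry 10 of 45 (22.2%) had such a start, against 2.95% of the genes tested at 14 h. An annotated start can lie away from the start used in a cell. For Mrpl18, on the minus strand, the RefSeq start is at 12916091, while its gene reaches to 12916345 in the GENCODE annotation. Most of the listed TOP-mRNAs did not show the motif at their RefSeq start either.

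Before the results of the family, the libraries were checked. Total footprint counts ranged from 2956297 to 10505108 per library, and the 77 genes took 0.422% to 0.501% of them. All 8 NSC markers (among them Nes, Vim, Fabp7 and Sox2) were measured, and their summed level, in CPM (counts scaled to a common library size), was 10530 to 17780 over the libraries. At 14 h Fabp7 and Slc1a3 fell with IFN-β, with log2 differences of -0.40 for Fabp7 and -0.36 for Slc1a3, and the part of this in the changes below was not tested. The summed markers of endothelial cells, oligodendrocytes and neurons reached at most 23.7 CPM in any library. Of the 5 microglial markers Aif1 and Cx3cr1 were at 0 in all libraries, and the others were not at 0 throughout. The summed level of the 5 microglial markers was 5.99 to 8.63 CPM with vehicle and 21.0 to 26.7 CPM with IFN-β at 14 h, nearly all of it P2ry12, and that of the 2 ependymal markers was 16.9 to 23.7 CPM and 42.4 to 56.6 CPM, all of it Foxj1. Their part in the changes below was not tested. The interferon-stimulated genes Ifit1, Ifit3, Isg15 and Irf7 rose at both times, Isg15 by 6.87 at 2 h and 11.33 at 14 h on the log2 scale. The 2 h cultures numbered 3 stood apart from the others in the TOP-mRNAs, as given with that list.

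In these cells the mitochondrial ribosomal protein genes were covered by footprints at levels that spanned 14.1-fold. Levels are given as CPM per kb of CDS, so that genes of different length can be set side by side. The length is the number of bases that are coding in any annotated transcript of the gene. In the vehicle libraries at 14 h the median over the 77 genes was 92.8, with a lowest gene at 24.9 and a highest at 351. The middle of the family was narrower, with an upper quartile 2.01 times the lower. The median was 98.1 for the 50 genes of the large subunit and 79.0 for the 26 of the small subunit. At 2 h the vehicle median was 83.2.

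Mrps6, a small-subunit protein with a bacterial counterpart, had the highest level, 351 ± 17.3 (SD, n = 4). It was followed by Mrpl52 (291 ± 8.95), Mrpl20 (289 ± 30.8), Mrpl17 (267 ± 21.0) and Mrpl12 (211 ± 20.1), all of the large subunit. Mrpl12 is the stalk protein through which translation factors contact the large subunit. The ranges of Mrps6 and Mrpl52 did not overlap, nor did those of Mrpl17 and Mrpl12, whereas Mrpl52, Mrpl20 and Mrpl17 overlapped each with the next. At the other end were Mrpl48 (24.9 ± 2.80), Mrpl19 (40.4 ± 3.66), Mrpl44 (40.6 ± 3.40), Mrps31 (40.6 ± 0.71) and Mrpl47 (40.7 ± 4.32), of which the last 4 lay within each other's spread. Mrpl48 alone stood below every other gene in all its libraries. Its length over all annotated transcripts was 1087 bases, and how far this way of counting lowered its level was not tested.

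**Figure D1:**
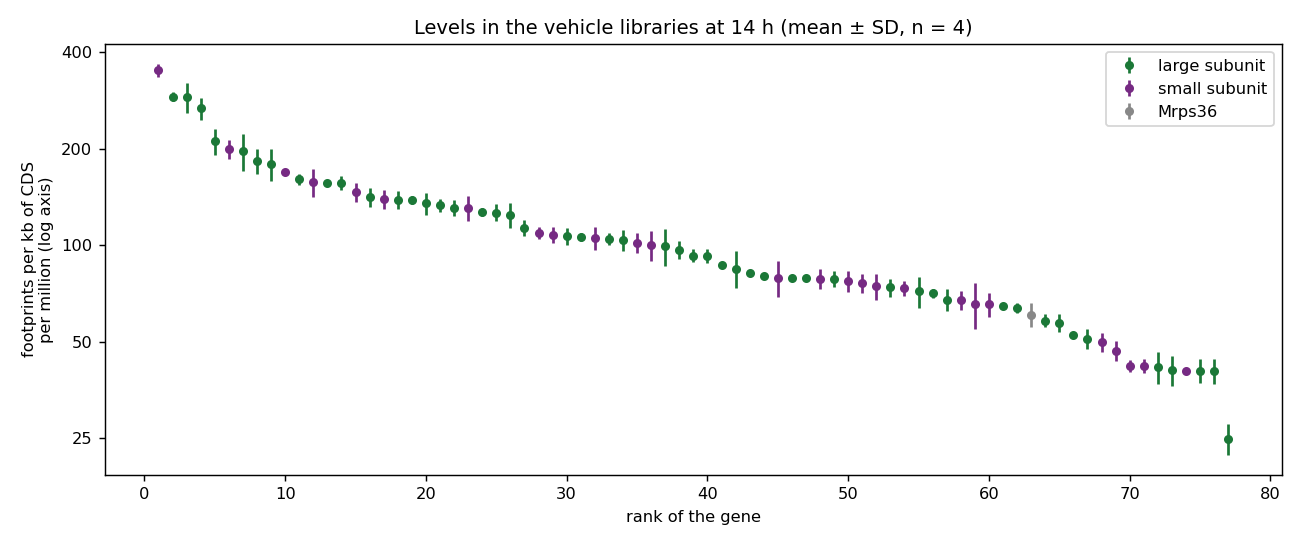
Footprint level, in CPM per kb of CDS, in the vehicle libraries at 14 h for the 77 genes, ranked (x axis) on a log axis (y axis); points are means of 4 libraries and bars 1 SD. Mrps6 leads with 351 and Mrpl48 closes with 24.9, and most neighbouring genes overlap in their spread.

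After 2 h of IFN-β 1 member of the family passed the test. Mrps6 rose 1.83-fold, and none of the other 76 was called in edgeR. The median log2 fold change, IFN-β over vehicle, was -0.02, with 31 genes above 0 and 46 below, beside -0.02 over all 12104 genes tested. Of all genes tested 5.25% were called higher and 2.01% lower (edgeR's quasi-likelihood test, two-sided, Benjamini-Hochberg adjusted p under 0.05), and 1 member higher and 0 lower. At an unadjusted p under 0.05 there were 2 members, and DESeq2 called 2.

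Mrps6 footprints in the vehicle libraries 2, 3, 5 and 6 were 151, 139, 145 and 128 CPM. With IFN-β they were 261, 301, 243 and 222 CPM. Every treated library lay above every untreated one, and the vehicle libraries differed little among themselves. On the log2 scale the rise was 0.87 with a standard error of 0.11 (adjusted p = 8.53e-04 in edgeR). It was called in all 14 other fits, which included DESeq2, other scalings and each library left out, with values from 0.78 to 0.93. In bulk cultures a change in the number of cells that use a gene and a change in its level per cell cannot be told apart. At 14 h the level was back among the controls, with 122, 134, 133 and 138 CPM in the vehicle libraries 1 to 4 and 123, 130, 148 and 149 CPM with IFN-β. The groups overlapped there, with a log2 fold change of 0.07 (adjusted p = 0.416 in edgeR).

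The call on Mrps6 needs its place in the genome beside it. Mrps6 lies on chromosome 16, from 92058270 to 92112227 on the plus strand of GRCm38. Its first exon is also the first exon of Slc5a3, the myo-inositol transporter, over 159 bases (92058322 to 92058480), and 45 of the 375 bases of its CDS (12%) lie in that shared part. A footprint there cannot be given to one transcript or the other. Slc5a3, named here after its values were seen, rose by 1.87 on the log2 scale at 2 h (adjusted p = 4.20e-04 in edgeR), from 141 to 235 CPM with vehicle to 524 to 883 CPM with IFN-β. At 14 h its log2 fold change was -0.51 (adjusted p = 4.21e-05 in edgeR). In all, 45.7% of the stretches of 28 bases in the CDS of Mrps6 occur in transcripts of Slc5a3 or Gm49711, and how far such reads entered the count was not tested.

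Footprint libraries with the same replicate number varied together. A model that holds this number as a block called 6 members higher at 2 h and 0 lower, where 15.9% and 13.4% of all genes were. These were Mrps6 (0.86), Mrpl30 (0.30), Mrps18b (0.30), Mrpl52 (0.30), Mrpl22 (0.18) and Mrpl17 (0.14), each given as the blocked log2 fold change. Mrpl30 had 59.3, 48.6, 59.4 and 61.6 CPM with vehicle and 72.4, 67.2, 68.4 and 73.6 CPM with IFN-β, so that the groups did not overlap. Without the block its adjusted p in edgeR was 0.0938. Across the family 3 genes had all IFN-β libraries above the vehicle libraries and 1 had all below, as did 7.77% and 5.14% of all genes tested. Of the 52 members with at most 10% of their CDS stretches shared with another gene, 0 were called at 2 h without the block.

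**Figure D2:**
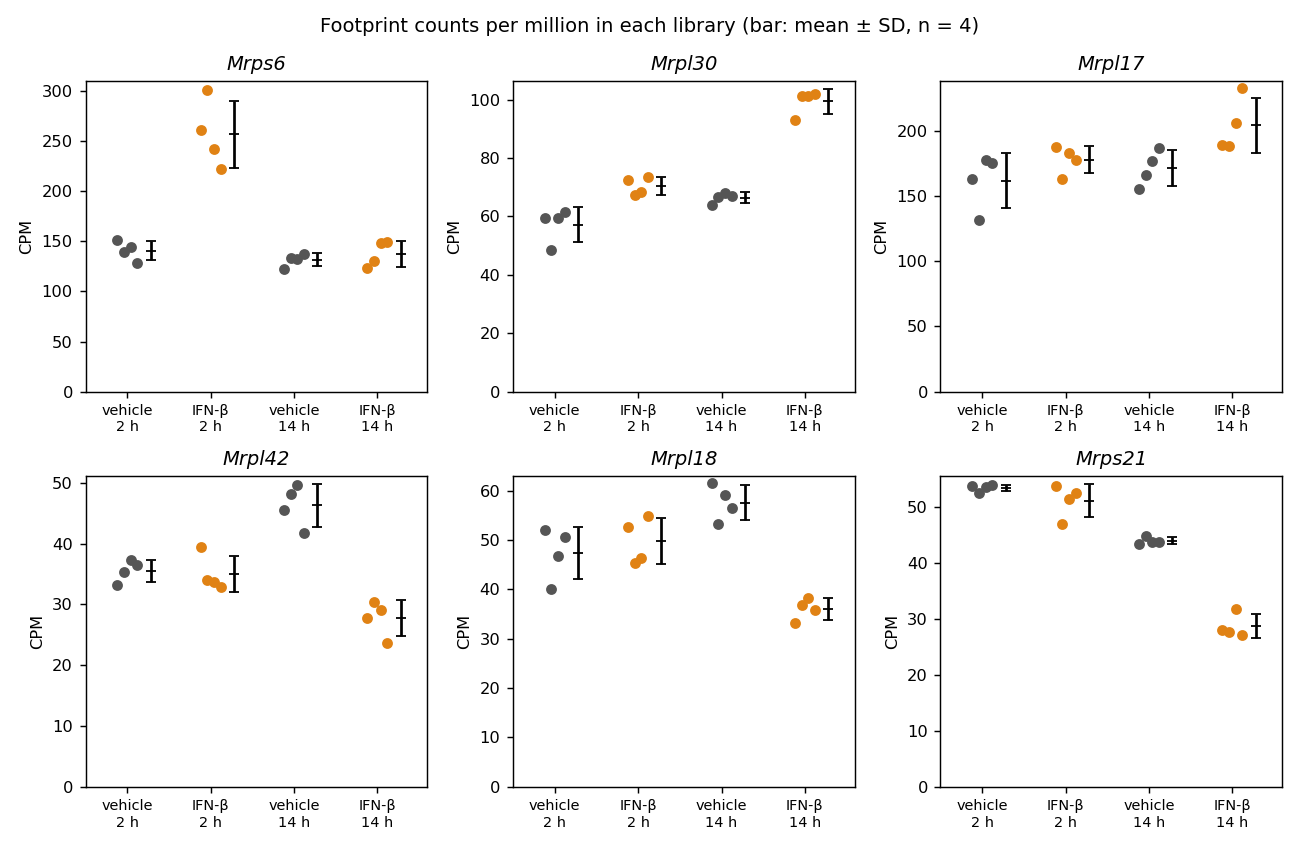
Footprints in CPM (y axis, from 0) in each library for 6 genes, with vehicle in grey and IFN-β in orange at 2 h and 14 h; points are libraries and bars give the mean and SD of 4. Mrps6 is high only with IFN-β at 2 h, Mrpl30 is highest with IFN-β at 14 h, and Mrpl42, Mrpl18 and Mrps21 lie below the vehicle libraries with IFN-β at 14 h.

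After 14 h more members were lower than higher, and the steps were small. Footprints of 28 members fell, those of 7 rose, and 42 did not pass the test. That is 36.4% of the family lower and 9.09% higher, beside 26.3% lower and 26.2% higher among all 12113 genes tested. The median log2 fold change was -0.12 over the members and 0.00 over all genes, and 55 members lay below 0 and 22 above. The median of the family stayed between -0.14 and -0.09 under 15 settings, including every scaling tried. In 26 members all IFN-β libraries lay below all vehicle libraries and in 5 above, while 23.7% and 22.4% of all genes did so.

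The changes were of modest size. No member changed by a factor of more than 2: the folds ran from 0.597 for Mrpl42 to 1.501 for Mrpl30, whereas 8.73% of all genes tested passed that size. The standard deviation of the log2 fold changes was 0.23 over the members and 1.06 over all genes. CPM are relative to the rest of the footprints of a library.

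**Figure D3:**
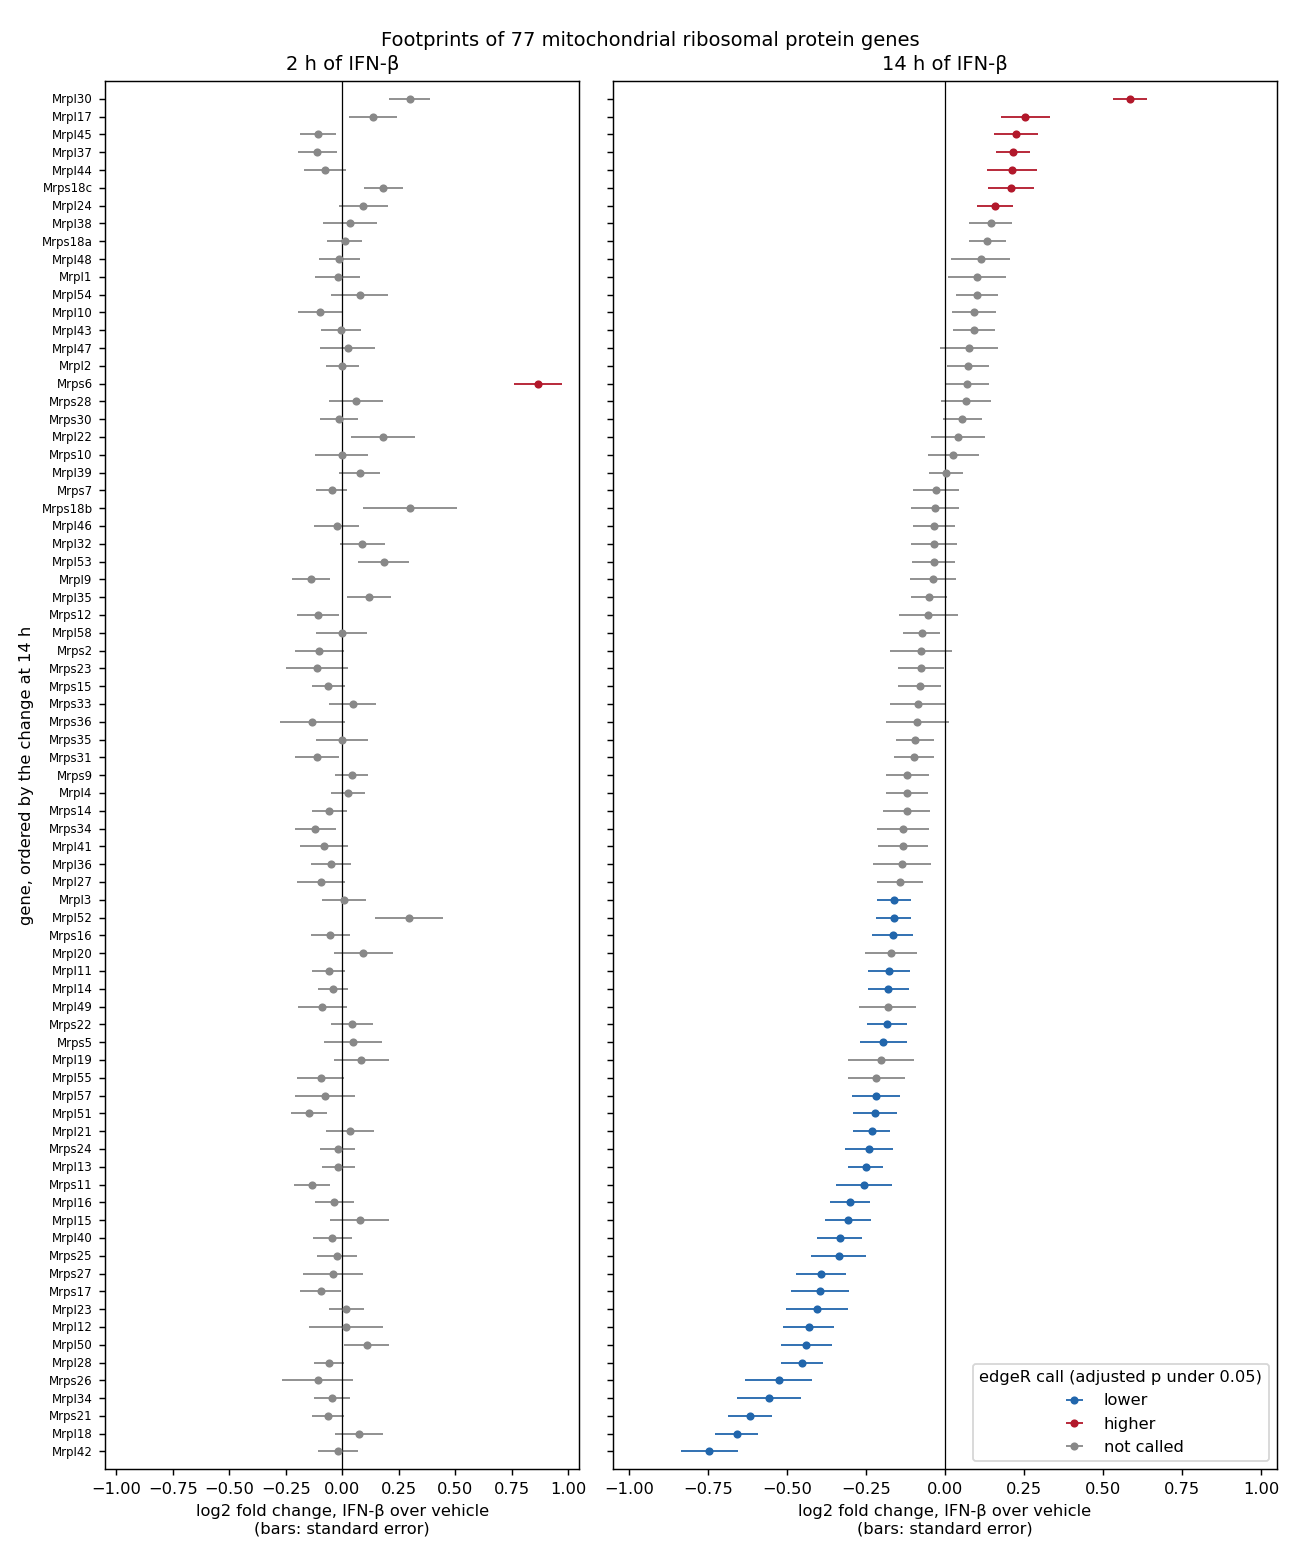
Log2 fold change of footprints, IFN-β over vehicle, for each of the 77 genes at 2 h (left) and 14 h (right), ordered by the change at 14 h; bars are standard errors and colours give edgeR's call. At 2 h only Mrps6 is coloured, and at 14 h 28 genes are lower and 7 higher.

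Mrpl42, a large-subunit protein found only in mitochondria, fell most. Its vehicle libraries 1 to 4 had 45.5, 48.2, 49.6 and 41.7 CPM, and its IFN-β libraries 27.8, 30.3, 29.1 and 23.6 CPM. All treated libraries were lower than all controls, and the fitted log2 difference was -0.75 with a standard error of 0.09 (adjusted p = 1.9e-05 in edgeR). Mrpl18, the counterpart of a bacterial large-subunit protein, fell from 61.5, 53.3, 59.1 and 56.4 CPM to 33.2, 36.9, 38.3 and 35.8 CPM. Its fitted log2 difference was -0.66, with a standard error of 0.07 (adjusted p = 4.66e-06 in edgeR) and a gap between the groups wider than the range of either. Mrps21, of the small subunit and the shortest CDS of the family with 261 bases, fell from 43.5, 44.9, 43.9 and 43.9 CPM to 28.1, 27.7, 31.9 and 27.2 CPM. The controls of Mrps21 were almost identical, and the fitted log2 difference was -0.62 with a standard error of 0.07 (adjusted p = 1.0e-05 in edgeR).

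Mrpl34, another short protein of bacterial type, fell by 0.56 on the log2 scale, Mrps26, of the small subunit and mitochondria-specific, by 0.53, and Mrpl28 by 0.45. Mrpl50 fell by 0.44 and Mrpl12, the stalk protein, by 0.43. In these 5 the IFN-β libraries lay below all vehicle libraries. Mrpl12 showed the narrowest gap relative to its range, with 109 to 135 CPM with vehicle and 84.1 to 103 CPM with IFN-β. The other 20 that fell had log2 differences from -0.40 for Mrpl23, a large-subunit protein, to -0.16 for Mrpl3, and the 42 not called lay between -0.22 and 0.14. All 8 genes named as falling kept their call in each of the 8 fits that left out 1 library, and so did 17 of the 28 in all.

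The members that rose were fewer and, but for 1, rose little. Mrpl30 stood out, with 63.9, 66.8, 68.1 and 66.9 CPM with vehicle and 93.1, 101.3, 101.3 and 102.0 CPM with IFN-β. The groups lay far apart and each was tight, and the fitted log2 difference was 0.59 with a standard error of 0.05 (adjusted p = 1.2e-06 in edgeR). The next, Mrpl17, a protein near the exit of the peptide tunnel, had 156 to 187 CPM with vehicle and 188 to 233 CPM with IFN-β, and rose by 0.25 on the log2 scale. Mrpl45, which holds the mitochondrial ribosome at the inner membrane, rose by 0.23, and Mrpl37 by 0.22. Mrpl44, with a ribonuclease III fold, rose by 0.21, Mrps18c by 0.21 and Mrpl24 by 0.16. Groups overlapped for Mrpl44 and Mrps18c. Only Mrpl30, Mrpl17 and Mrpl37 kept their call whichever library was left out; the call on Mrpl45 was lost without IFN-β replicate 2 (adjusted p = 0.0536 in edgeR), and those on Mrpl44, Mrps18c and Mrpl24 in several fits.

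Mrpl30 lies on chromosome 1, from 37890477 to 37898535 on the plus strand, and starts 66 bases from Mitd1, a gene of the end of cell division that runs the other way. Mitd1, named after its values were seen, rose at both times, by 1.91 after 2 h (adjusted p = 2.43e-05 in edgeR) and 2.54 after 14 h (adjusted p = 2.5e-11 in edgeR) on the log2 scale. It had 9.88 to 11.6 CPM with vehicle and 58.6 to 67.8 CPM with IFN-β at 14 h. Among the members 33 have a protein-coding gene on the other strand that starts within 1000 bases, and 31 of these partners were tested. At 14 h 8 of the 31 partners were called higher and 10 lower, shares near the 26.2% and 26.3% of all genes. In 8 pairs the member and its partner were both called in the same direction, as for Mrpl44 with Wdfy1 and Mrpl57 with Ska3, and in 2 pairs in opposite directions; whether this is more than the shares of calls give was not tested. At 2 h Mitd1 was the single partner called.

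Calls at 14 h came from both subunits. Of the 50 large-subunit genes 18 fell and 6 rose, with a median of -0.13 on the log2 scale, and of the 26 small-subunit genes 10 fell and 1 rose, with a median of -0.11. Mrps36, which shares the name of the family but belongs to the oxoglutarate dehydrogenase complex, had -0.09 (adjusted p = 0.51 in edgeR). Of the 45 proteins with a bacterial counterpart 18 fell and 4 rose, with a median of -0.14. Of the 31 found only in mitochondria 10 fell and 3 rose, with a median of -0.08. The differences between these groups were not tested. Within the small subunit all 10 mitochondria-specific genes lay below 0 and 4 of them were called. In the whole family 22 genes lay above 0, and of all genes tested 26.3% were called lower. This group was picked after its values were seen, and the other combinations of subunit and class are not given here.

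The short genes of the family held more of its lower calls than the long ones, and the short genes outside it held a larger share of lower calls as well; neither difference was tested. Of the 26 members with the shortest CDS (261 to 513 bases) 12 fell and 2 rose, with a median log2 fold change of -0.16. Of the 26 with the longest (774 to 1368 bases) 6 fell and 3 rose, with a median of -0.06. Among 782 other genes of the short range 38.8% were called lower and 12.9% higher, with a median of -0.15, and among 3151 others of the long range 26.8% and 26.3%, with a median of 0.00. The 25 members between had a median of -0.13 where 1128 others had -0.03.

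Under the replicate block all 35 calls at 14 h held in the same direction, and 9 members were called higher and 34 lower, where 31.8% and 31% of all genes were. Leaving out 1 library gave 17 to 32 members lower and 5 to 7 higher. The lowest count came without vehicle replicate 3, with 17 lower and 5 higher. Of the 42 members with no gene on the other strand 16 fell and 3 rose, and of the 52 with at most 10% of their CDS shared 18 fell and 4 rose. Shared stretches touch several of the named genes: 44.6% of the CDS of Mrpl42 in stretches of 28 bases, 32.9% of Mrpl18, 47.4% of Mrps21 and 45.5% of Mrpl30 occur in another gene as well, mostly a predicted gene, whereas Mrpl34, Mrpl50, Mrpl17, Mrpl37 and Mrpl44 share none.

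The TOP-mRNAs had a lower median. At 14 h 61 of 64 fell and 0 rose (edgeR), 62 had an unadjusted p under 0.05, and DESeq2 called 60 lower. The median log2 difference was -0.47, and all 64 lay below 0. Members and TOP-mRNAs overlapped in range, since 5 of the 77 members lay below the median of the TOP-mRNAs. The study defined this list by the sequence after the cap, not by these counts. The difference between the lists was not tested. Each library was also given a single value per list, which is the median over the list's genes of log2(CPM + 0.5) minus that gene's mean in the vehicle libraries. For the members it was -0.08, 0.03, 0.03 and 0.01 in the vehicle libraries 1 to 4 at 14 h and -0.21, -0.12, -0.08 and -0.07 with IFN-β. The lowest vehicle library lay among the treated ones, and within each of the 4 numbered pairs the treated library was the lower. For the TOP-mRNAs the controls averaged 0.01 ± 0.05 (SD, n = 4). The treated libraries averaged -0.46 ± 0.04 (SD, n = 4), far from every control.

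At 2 h the TOP-mRNAs had a median log2 difference of 0.27, with all 64 above 0, beside -0.02 in the members. None of the 64 was called in edgeR or DESeq2, and 1 had an unadjusted p under 0.05, whereas the replicate block called 54 of them higher. The per-library medians of the TOP-mRNAs were 0.26, -0.70, 0.21 and 0.25 with vehicle in cultures 2, 3, 5 and 6 and 0.56, -0.34, 0.42 and 0.49 with IFN-β. Culture 3 was far below the others in both groups. In the members the same cultures had the lowest values as well, but by little, at -0.10 in both groups against -0.02 to 0.08 in the others. Without vehicle replicate 3 the median of the members was -0.05 and without IFN-β replicate 3 it was 0.01, and Mrps6 was the 1 member called in both fits. The median of the TOP-mRNAs was 0.09 and 0.43 in these fits.

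**Figure D4:**
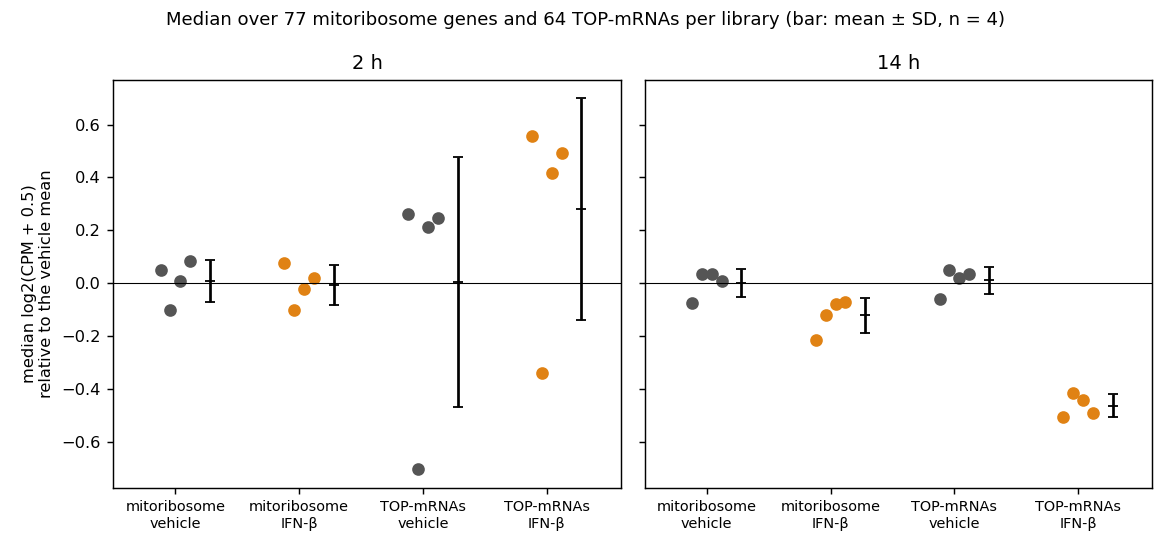
Median over the 77 genes and over the 64 TOP-mRNAs of log2(CPM + 0.5) relative to the vehicle mean (y axis) in each library at 2 h (left) and 14 h (right); points are libraries and bars the mean and SD of 4. At 14 h the IFN-β libraries average -0.12 for the mitoribosome genes and -0.46 for the TOP-mRNAs, and at 2 h culture 3 lies low in the TOP-mRNAs of both groups.

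Whether the response differed between the times was tested with an interaction term in a model of all 16 footprint libraries. In 3 members the response was higher at 14 h than at 2 h and in 8 it was lower, where 15.4% and 15.5% of 12508 genes tested were. The median difference was -0.10 over the members and 0.02 over all genes. Among the members Mrps6 had the largest difference, -0.79 with a standard error of 0.13 (adjusted p = 2.64e-04 in edgeR), and its high level was the one at 2 h. It was followed by Mrpl18 with -0.73, Mrpl42 with -0.71, Mrpl50 with -0.55, Mrps21 with -0.54, Mrpl34 with -0.51, Mrpl23 with -0.42 and Mrpl28 with -0.38. The 3 in the other direction were Mrpl45 with 0.34, Mrpl37 with 0.34 and Mrpl30 with 0.30. The call on Mrpl30 was lost in 12 of the other fits and that on Mrpl23 in 8. The replicate block gave 5 higher and 25 lower, where 28% and 27.5% of all genes were. Without IFN-β replicate 3 of the 2 h cultures 2 were higher and 18 lower. Of the 52 members with little shared sequence 1 was higher and 3 were lower.

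The other parts of the machinery of mitochondrial gene expression were described by lists. Of 5 ribosomal subunits that carry other symbols, Ptcd3, a pentatricopeptide repeat protein of the small subunit, fell from 112 to 120 CPM to 76.4 to 88.8 CPM at 14 h, a log2 difference of -0.45. Chchd1, another small-subunit protein, fell by 0.25. Dap3, the GTP-binding protein of the small subunit, had -0.04 (adjusted p = 0.534 in edgeR), Aurkaip1 0.02 (adjusted p = 0.8 in edgeR) and Gadd45gip1 0.03 (adjusted p = 0.684 in edgeR). At 2 h none of the 5 was called in edgeR or DESeq2, and none had an unadjusted p under 0.05.

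Among 27 factors that assemble the mitochondrial ribosome 8 fell (29.6%) and 2 rose (7.41%) at 14 h, around a median of -0.07 on the log2 scale. The shares over all genes in edgeR, 26.3% lower and 26.2% higher, are to be read beside this list and those that follow. DESeq2 called 6 of the 27 lower and 1 higher. Gtpbp10, a GTPase of large-subunit assembly, fell by 0.81, from 13.2 to 16.3 CPM to 7.47 to 9.77 CPM. Fastkd2, which binds the large mitochondrial ribosomal RNA, fell by 0.48. Mpv17l2 rose by 0.37 and Mterf4, the partner of the RNA methyltransferase Nsun4, by 0.31. Without the block Nsun4 was the only gene of the list called at 2 h, where it rose by 0.61 (adjusted p = 0.0373 in edgeR). Over all genes 5.25% were called higher and 2.01% lower at that time. Under the replicate block 3 of the 27 were called higher and 4 lower at 2 h, where 15.9% and 13.4% of all genes were. Nsun4 was named after its values were seen.

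Of 16 translation factors and their helpers 5 fell (31.2%) and 2 rose (12.5%) at 14 h, with a median of -0.07. Guf1, a homolog of a bacterial elongation factor, fell by 0.47 and Tufm, the elongation factor that carries charged tRNAs, by 0.26, while the initiation factor Mtif3 rose by 0.39 and the RNA-binding protein Slirp by 0.21. Of 20 genes that charge mitochondrial tRNAs 7 fell (35%) and 1 rose (5%) in edgeR, with a median of -0.14, and DESeq2 called 4 lower and 1 higher. Mars2, the methionyl-tRNA synthetase, fell by 0.90, and Fars2, the phenylalanyl-tRNA synthetase, rose by 0.53, from 15.5 to 20.9 CPM to 26 to 28.8 CPM.

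Of 17 genes for the transcription and copying of mitochondrial DNA and for the nuclear control of such genes, 8 fell (47.1%) and 1 rose (5.88%) at 14 h, with a median of -0.21. Tfb2m, a transcription factor of mitochondrial DNA, fell by 0.59 and Myc by 0.52, and the nuclear receptor Esrra rose by 0.30. At 2 h Ppargc1a, the coactivator of mitochondrial genes, fell by 1.29 (adjusted p = 6.69e-06 in edgeR), from 52.2 to 54.7 CPM to 20.9 to 23.3 CPM, and its relative Pprc1 rose by 0.78 (adjusted p = 0.0430 in edgeR). At 14 h Ppargc1a had 0.14 (adjusted p = 0.0948 in edgeR) and Pprc1 fell by 0.47. Both were named after their values were seen. Under the replicate block 1 of the 17 was called higher and 4 lower at 2 h, where 15.9% and 13.4% of all genes were. All 13 protein-coding genes of mitochondrial DNA are listed with 0 footprints in every library, so what the mitochondrial ribosome itself translated was not measured.

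**Figure D5:**
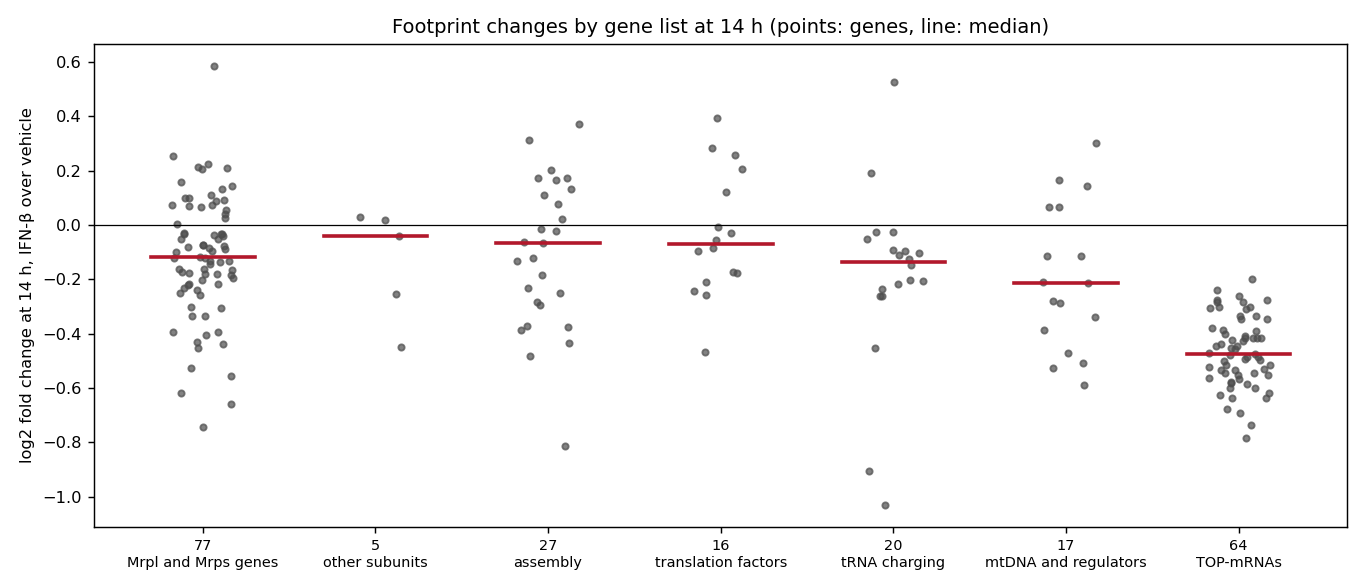
Log2 fold change of footprints at 14 h (y axis) for the 77 family members, 5 lists of the mitochondrial gene expression machinery and the 64 TOP-mRNAs; points are genes and red lines medians. Medians run from -0.21 to -0.04 in the lists of the machinery, with -0.12 in the family, and the TOP-mRNAs centre at -0.47.

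The promoters of the members were searched for motifs, which the choice of the family did not use. Windows of 250 bases before and 50 after the RefSeq start were searched on both strands for CCGGAAG, a motif of ETS factors such as GABP, for AAGATGGC, a motif of YY1, and for the palindromic motif of NRF1. The ETS letters occurred in 25 of 68 members (36.8%), in 33.3% of the 45 TOP-mRNAs with an entry, in 20.7% of the genes tested and in 9.93% of all genes in the table. The YY1 letters occurred in 12 members (17.6%), against 13.3%, 5.44% and 3.19%, and the NRF1 motif in 13 (19.1%), against 11.1%, 12.1% and 5.19%. Most members thus held none of a given motif, and these shares were not tested. Matches of different motifs can overlap. Windows of 30 bases around a match, with the match in capitals, show where it lies near the start of 3 of the members that fell.
Mrpl42, YY1, chr10:95501904-95501933, minus strand: cagattgaagcAAGATGGCgagcgcgcggt
Mrps21, ETS on the other strand, chr3:95871478-95871507, minus strand: cgtagcttccgCTTCCGGtccgcagagacc
Mrpl34, ETS, chr8:71464878-71464907, plus strand: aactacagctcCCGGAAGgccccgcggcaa

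Matches occurred in each class of members. The ETS motif was found in 12 of 26 members that fell with an entry, in 2 of 7 that rose and in 11 of 35 not called, the YY1 motif in 4, 1 and 7 of them, and the NRF1 motif in 5, 4 and 4. Footprints of the factors named after these motifs were measured too. At 14 h those of Gabpa fell by 0.34, those of Gabpb1 by 0.51 and those of Nrf1 by 0.39, and Yy1 had -0.11 (adjusted p = 0.0601 in edgeR). At 2 h these 4 had log2 differences from -0.06 to 0.06.

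Total RNA said little about the family, because its counts there were few. Over the 42 members with no annotated gene on the other strand the median of the mean counts per library was 6.69 at 2 h and 1.94 at 14 h, against 394 and 420 footprints. The 28 members whose exons overlap those of a gene on the other strand held 91.4% (2 h) and 86.3% (14 h) of the family's total RNA counts, but 32.8% and 33.2% of its footprints. Mrpl48, which overlaps Rab6a among others, had the highest mean, 2867 counts at 2 h and 648 at 14 h. The libraries came from a directional kit, the strand setting of the counting was not given in the sources used here, and its part in these counts was not tested.

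In total RNA 37 members could be tested at 2 h and 17 at 14 h, and 0 were called at either time, where 0.799% and 6.3% of all genes were (edgeR). At an unadjusted p under 0.05 there were 1 and 2 members, and DESeq2 called 0 of both. The median log2 difference was 0.09 at 2 h and -0.07 at 14 h. Translation efficiency (TE), the change in footprints relative to that in total RNA, was called at an adjusted p under 0.1. The minimum count for TE was taken over footprint and total RNA libraries together, so a member could pass it by its footprints alone. Mrpl2 and Mrpl53 had 0 total RNA counts in every library, and for such members the lack of a call says nothing about TE. At 2 h 0 of 77 members were called in edgeR, where 0.815% of all genes were. There 5 had an unadjusted p under 0.05, and DESeq2 called 1, Mrpl28.

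At 14 h the TE of 2 members was called higher, Mrps23 (1.76) and Mrps15 (2.48), and that of 2 lower, Mrps7 (-0.81) and Mrpl49 (-0.78), where 4.49% and 3.96% of all genes were called (edgeR). The footprints of these 4 were not called. Total RNA counts of Mrps15 were 6, 6, 1 and 1 with vehicle and 0, 0, 2 and 1 with IFN-β, and those of Mrps23 were 17, 3, 1 and 12 and 1, 5, 3 and 3. Those of Mrps7, which overlaps Gga3 and Mif4gd on the other strand, were 60, 10, 9 and 56 with vehicle and 78, 86, 88 and 51 with IFN-β. Mrpl49 overlaps Syvn1. The count was 1 without IFN-β culture 1, and 2 without IFN-β culture 2 or vehicle culture 2. At this depth a change in TE of the size seen in the footprints was not detectable for most members.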

How the data were processed

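Ribo-Seq and matched total RNA of 32 libraries were used as raw counts per gene, deposited by the authors without normalization. According to the methods and the labels, reads were trimmed with Trim Galore 0.4.4, mapped with Bowtie 0.12.7 to the mm10 transcriptome, freed of duplicates and counted in the CDS (footprints) or gene body (total RNA). No column was left out. Symbols, positions and CDS lengths came from GENCODE M21, which matched 22205 of 23035 footprint identifiers, and starts and promoters from RefSeq GRCm38.p6. The members and all lists were chosen with earlier results of these data known.

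Genes that reached 10 counts in 4 or more libraries were tested in R 4.3.3 with edgeR 4.0.16 (TMM, quasi-likelihood test, two-sided), with p-values adjusted over all genes tested, and with DESeq2 1.42.0 as an alternative. The test was checked on simulated data with a fixed spread that was not fitted to these libraries. Of 1.5-fold rises it called 48% at 2 h, 55.1% at 14 h, 26% in the difference between times and 0% in TE at 14 h. Of 2-fold rises it called 100%, 92%, 82% and 18% in the same order. Because the spread was set, these are not the rates for the members. CPM are counts over the TMM-scaled library size. According to the methods, replicates are cultures from different mice. Same-numbered footprint libraries deviated together (correlation of their deviations from the group means 0.345 to 0.821 at 2 h and 0.203 to 0.434 at 14 h), a pairing found in the data. The block is given beside the footprint results of the members. For the other lists it is given only in part, and it changed some of their counts at both times. For total RNA the range was -0.483 to 0.389 and -0.00975 to 0.246, and the numbers were not taken as pairs.

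Named members were the 8 called members with the largest change in each direction per footprint comparison, and up to 6 per direction in total RNA and TE. The 5 highest and lowest levels and the 5 subunits with other symbols were named as well. In each side list the 2 largest called changes per direction at 14 h were named. Others, among them Slc5a3, Mitd1, Ppargc1a, Pprc1 and Nsun4, were named after their values were seen. A few named items are not reported here. Members without an overlapping gene, with little shared sequence and with 1 library left out were tried as alternatives.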

Additional observations from a re-analysis of the deposited data

Results flagged for a closer look

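In 11 members the response to IFN-β differed between 14 h and 2 h by the interaction test in edgeR. The differences in log2 fold change were -0.79 for Mrps6, -0.73 for Mrpl18, -0.71 for Mrpl42, -0.55 for Mrpl50, -0.54 for Mrps21, -0.51 for Mrpl34, -0.42 for Mrpl23 and -0.38 for Mrpl28, and 0.30 for Mrpl30, 0.34 for Mrpl37 and 0.34 for Mrpl45. Mrps6 had its high level at 2 h, and Mrpl30 lay above its controls at both times.

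Single libraries lay far from the other 3 of their group in 8 of 76 groups looked at, where chance gives about 5% of groups. These groups share libraries, so the flags are not independent of each other. Mrpl12 had 93.2 CPM in IFN-β culture 3 at 2 h, with the others at 130 CPM or more. It had 109.1 CPM in 1 vehicle library at 14 h, with the others at 132 CPM or more. Mrpl30 had 93.1 CPM and Mrpl50 36.5 CPM in 1 IFN-β library at 14 h, which was replicate 1, the library with the fewest counts. Mrpl44 had 51.3 CPM in 1 vehicle library at 2 h, above 42.1 CPM in the next. Mrps26 had 24.8 CPM in vehicle culture 3 at 2 h, below 33.8 CPM in the next. The median of the TOP-mRNAs was -0.70 in vehicle culture 3 and -0.34 in IFN-β culture 3 at 2 h.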

How the results depend on the processing

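None of the named members changed direction under any of the alternative fits run, and 465 of 520 repeats kept the call. The 55 that lost it belong to Mrpl45, Mrpl44, Mrps18c and Mrpl24 at 14 h, to Mrpl30 and Mrpl23 in the difference between times and to the 4 TE calls. With the replicate block the number of members called was 6 at 2 h and 30 in the difference between times, in place of 1 and 11. DESeq2 called 2 at 2 h (Mrps6 and Mrpl30) and 1 in TE at 2 h. Without a filter on counts 1 member, Mrps7, was called in total RNA at 14 h. Among members with no gene on the other strand 19 were called at 14 h and 2 in TE at 14 h, and among those with little shared sequence, a choice made after seeing the data, 0 at 2 h, 22 at 14 h and 4 in the difference between times; fewer members were counted there. With a mean of at least 50 counts 1 TE call was left at 14 h, of 6 members tested. Leaving out 1 library left 1 member called at 2 h in all 8 fits, 22 to 37 at 14 h, 9 to 20 in the difference between times, 0 in total RNA at both times and in TE at 2 h, and 1 to 4 in TE at 14 h. Low total RNA counts, shared or overlapping sequence, 4 cultures a group and the unknown strand setting limit what these data can show.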
